A study of Mus musculus with 10 samples.

Results

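The genes described here move calcium back into the sarcoplasmic reticulum of muscle fibers or hold it there and in the cytosol. They are the calcium pumps Atp2a1 and Atp2a2, the pump inhibitors Sln and Pln, the calsequestrins Casq1 and Casq2, and the cytosolic buffer Pvalb. They were chosen by name, with earlier results of these data known, as 7 genes of the 20009 with counts in at least 1 library. The level of a gene was the sum of the deposited counts over its transcripts, and soleus was compared with TA.

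RNA was sequenced from whole soleus, a slow-twitch muscle, and whole TA, a fast-twitch muscle, of wild-type mice. Each muscle gave 5 libraries, 3 from males and 2 from females, and all groups shared the wild-type genotype. Replicate numbers were shared between the muscles and are read here as mice. No strain, age or treatment was given in the labels, and nothing in them says how the replicates were raised, so p-values measure the spread between these samples.

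A contraction ends when calcium released from the sarcoplasmic reticulum is pumped back into it. The sarco-endoplasmic reticulum calcium ATPases, called SERCA, do this at the cost of ATP, with SERCA1, encoded by Atp2a1, in fast fibers and SERCA2, encoded by Atp2a2, in slow fibers and the heart. Sarcolipin and phospholamban are small membrane proteins that bind SERCA and lower its activity. Calsequestrin binds calcium inside the reticulum with low affinity and high capacity, and parvalbumin binds it in the cytosol of fast fibers, which speeds relaxation.

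Library totals ran from 726075 to 961237 counts, and 11073 to 15070 genes had a count in soleus against 10971 to 11835 in TA. The soleus library of female 2 stood apart with 15070 genes, the other 4 soleus libraries having at most 11858. The gene model Gm20594 took 22.1% to 28.4% of counts in soleus and 17.2% to 20.9% in TA. Libraries of the same group differed by far more than sampling noise, with chi-square per degree of freedom of 5.80 to 19.1 over genes, so no library was counted as a duplicate. The labelled muscles carried their fiber markers: the summed level of 6 slow fiber genes was 5116 to 6965 CPM, counts scaled by TMM to a common library size, in soleus and 0 to 12.7 in TA, with 6 of 6 called higher in soleus. The 8 fast fiber genes summed to 2923 to 6028 CPM in soleus and 21756 to 34851 in TA, with 6 called higher in TA, 1 (Myh2) higher in soleus, and most of the sum on Tnnc2 and Actn3. Of 6 genes that mark heart muscle none passed the filter on low counts, Nppb, Myl7 and Tnni3 had no count, and their sums were 2.64 to 16.0 CPM in soleus and 1.13 to 5.79 in TA. In whole muscle, fewer fibers of a type and less RNA per fiber cannot be told apart.

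Of these, 5 genes passed the filter on low counts and all 5 differed between the muscles. Atp2a1, Casq1 and Pvalb were higher in TA, and Atp2a2 and Sln were higher in soleus. In each case the 5 soleus and the 5 TA libraries did not overlap, which by itself makes the direction the same in 5 of 5 mice. The fit called 22.0% of all 5115 genes tested in either direction, 11.0% higher in soleus and 11.0% higher in TA, and 15.1% of the tested genes had libraries that did not overlap. Pln and Casq2 stayed below the filter and were not tested. Atp2a2 and Sln passed the filter only through soleus and Pvalb only through TA, the muscles where they were high. That all 5 tested genes differed was thus partly set by the filter. The tests were edgeR quasi-likelihood F tests over all genes with sex as a covariate, with a Benjamini-Hochberg adjusted p under 0.05 as the threshold.

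**Figure D1:**
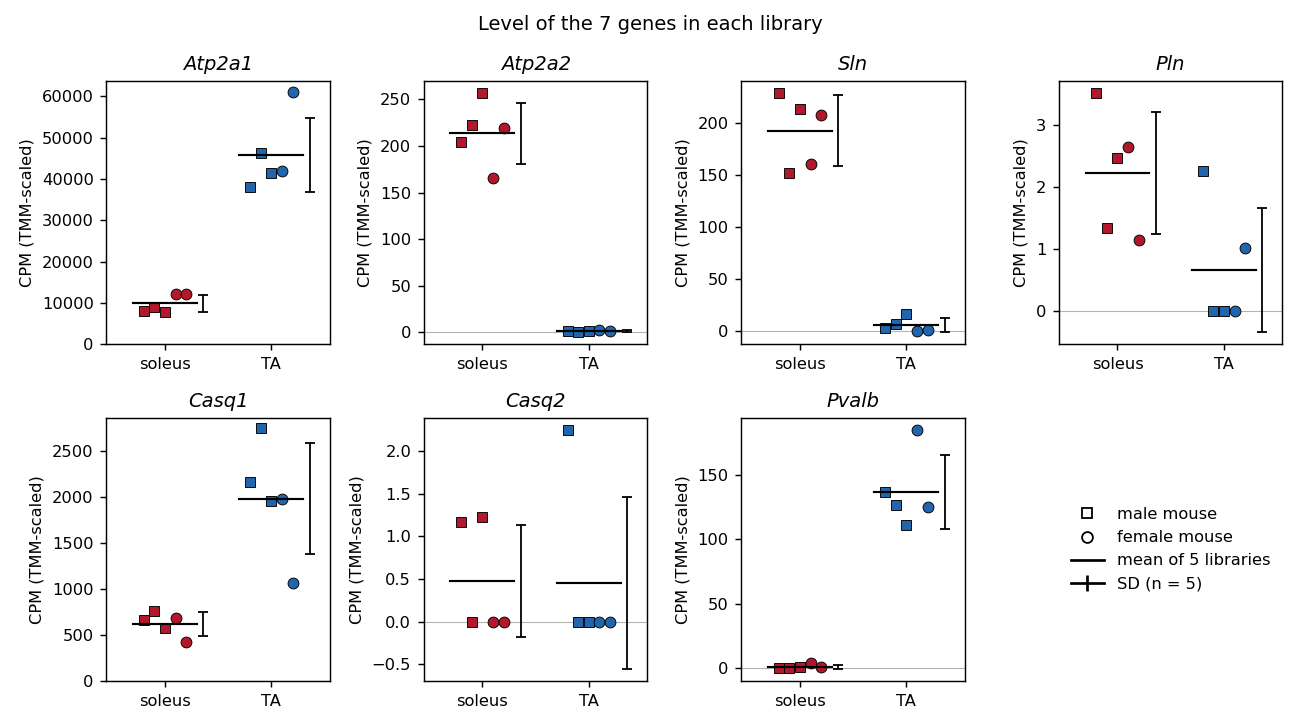
Level of each gene (CPM after TMM scaling, linear axis that includes 0, a separate axis for each gene) in the 5 soleus and 5 TA libraries, with squares for males, circles for females, a line at the mean and a bar for the SD. Atp2a1, Casq1 and Pvalb sit higher in every TA library, Atp2a2 and Sln in every soleus library, and Pln and Casq2 rest on 12 and 4 counts in all.

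Atp2a1, the gene of the fast pump, had the most counts of the 7 in both muscles and the highest level per transcript length. It lies on chromosome 7 at 126445858 to 126463108 on the minus strand (GRCm38, identifier ENSMUSG00000030730). Its level in soleus was 8150, 8947 and 7900 CPM in males 1 to 3 and 12137 and 12181 CPM in females 1 and 2. In TA it was 38168, 46368 and 41537 CPM in the males and 41975 and 61041 CPM in the females. The lowest TA library was thus above the highest soleus library, and both soleus females were above all soleus males. The mean ± SD over 5 libraries was 9863 ± 2131 CPM for soleus and 45818 ± 8995 for TA, a 4.70-fold difference (log2 fold change of soleus over TA -2.23, SE 0.15, adjusted p = 5.57849e-07, edgeR). As a share of all counts, this gene took 0.772% to 1.27% in soleus and 3.60% to 6.76% in TA.

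Nearly all counts of Atp2a1 fell on the transcript Atp2a1-201, which has 23 exons and 994 codons. It held 39910 counts in soleus and 206545 in TA (log2 fold change -2.22, SE 0.15, adjusted p = 8.43505e-07, edgeR over 5089 transcripts). Across all transcripts tested that fit called 24.2%, and of the 8 tested transcripts of these genes it called 7. These transcripts carry the counts of the genes already called, so their calls are no separate support. Sln-201, Atp2a2-201, Atp2a2-202 and Atp2a2-203 passed the filter only through soleus and Pvalb-202 only through TA. That number of calls was thus partly set by the filter. The short transcript Atp2a1-202, with 5 exons, had 47 counts in soleus and 29 in TA. Its fitted difference was 0.85 in log2 (SE 0.42, adjusted p = 0.175, edgeR) and did not pass the threshold. The promoter of Atp2a1 is shown because this gene, Casq1 and Pvalb were all higher in TA. It is the RefSeq window of 250 bases before to 50 after the start site, at chr7:126463024-126463323 of GRCm38.p6 on the minus strand, in lower case with motif matches in capitals.
Atp2a1 promoter: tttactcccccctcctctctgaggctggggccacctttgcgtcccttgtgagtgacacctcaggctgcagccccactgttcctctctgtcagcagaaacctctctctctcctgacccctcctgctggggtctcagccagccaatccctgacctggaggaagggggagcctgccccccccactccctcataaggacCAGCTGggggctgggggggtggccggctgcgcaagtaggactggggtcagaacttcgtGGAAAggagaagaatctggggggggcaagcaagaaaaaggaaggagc

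The motifs searched on both strands in this and the other windows were the E-box CANNTG bound by myogenic factors, the NFAT core GGAAA, whose reverse complement is TTTCC, and the MEF2 site. No matches overlapped in the windows shown. Positions count from 0 at the start site. The Atp2a1 window held an E-box CAGCTG at -55 to -50 and an NFAT core at 3 to 7. Of 32851 promoters of the same length, 72.3% held an E-box, 61.3% an NFAT core and 3.19% a MEF2 site. A match is a description of the letters only. Promoter entries matched 5 of the 7 genes, with 6 windows in all. No entry was matched for Atp2a2 and Sln.

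Atp2a2, the gene of the slow and cardiac pump, was present in every soleus library and close to absent from TA. It lies on chromosome 5 at 122453513 to 122502225 on the minus strand (ENSMUSG00000029467). Soleus had 205, 222 and 257 CPM in males 1 to 3 and 166 and 219 CPM in the females. TA had 1, 0 and 1 counts in the males and 2 and 1 in the females. The soleus libraries lay within a narrow band, with a coefficient of variation of 15.4%, while each TA library held at most 2 reads. The mean ± SD (n = 5) was 214 ± 32.9 CPM for soleus and 1.12 ± 0.825 for TA. The summed counts were 868 and 5, which after scaling is 192-fold (95% counting interval 81.8 to 591). The fitted log2 fold change was 7.40 (SE 0.30, adjusted p = 6.74223e-09, edgeR), and 3 of the 5115 genes had a smaller p.

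Counts in soleus fell on several annotated transcripts of Atp2a2. The gene makes a shorter pump protein typical of slow and cardiac muscle, SERCA2a, and a longer, widely expressed SERCA2b by using different 3′ ends. The 998-codon transcript Atp2a2-202 had 604 counts in soleus and 2 in TA, 333-fold after scaling (counting interval 91.8 to 2758, adjusted p = 2.06485e-08, edgeR). The 1044-codon transcript Atp2a2-201 had 70 counts in soleus and none in TA, which is at least 25.7-fold when the TA sum is set to a floor of 3 counts (adjusted p = 0.000181623, edgeR). Atp2a2-203, also with 1044 annotated codons, is annotated as a target of nonsense-mediated decay. It had 185 and 3 counts, 68-fold after scaling (counting interval 22.9 to 333, log2 fold change 5.81, adjusted p = 3.9889e-06, edgeR). TA female 1 held 2 of those 3 TA counts, and without it the log2 fold change was 6.81. All 3 of these transcripts were called higher in soleus, but with females only Atp2a2-201 (adjusted p = 0.110) and Atp2a2-203 (adjusted p = 0.0884, edgeR) did not pass. With protein-coding transcripts only, the log2 fold change of the gene was 8.16. The 2 noncoding transcripts had 9 counts in soleus and none in TA, 6 of them in the soleus library of female 2.

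The transcripts of Atp2a2 differ in how much sequence sets them apart. Dividing counts by that sequence assumes that reads shared between transcripts were not counted, which the sources used here do not state and which was not tested. Atp2a2-202 has only 30 stretches of 31 bases (31-mers) that no other annotated transcript shares, Atp2a2-201 has 51 and Atp2a2-203 has 478. Counts per such 31-mer in soleus were 20.1 for Atp2a2-202, 1.37 for Atp2a2-201 and 0.387 for Atp2a2-203. The shorter coding transcript led under raw counts, with 69.6% of the gene's soleus counts, and per own 31-mer. In every soleus library Atp2a2-202 had more counts than the other 4 transcripts of the gene together.

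**Figure D2:**
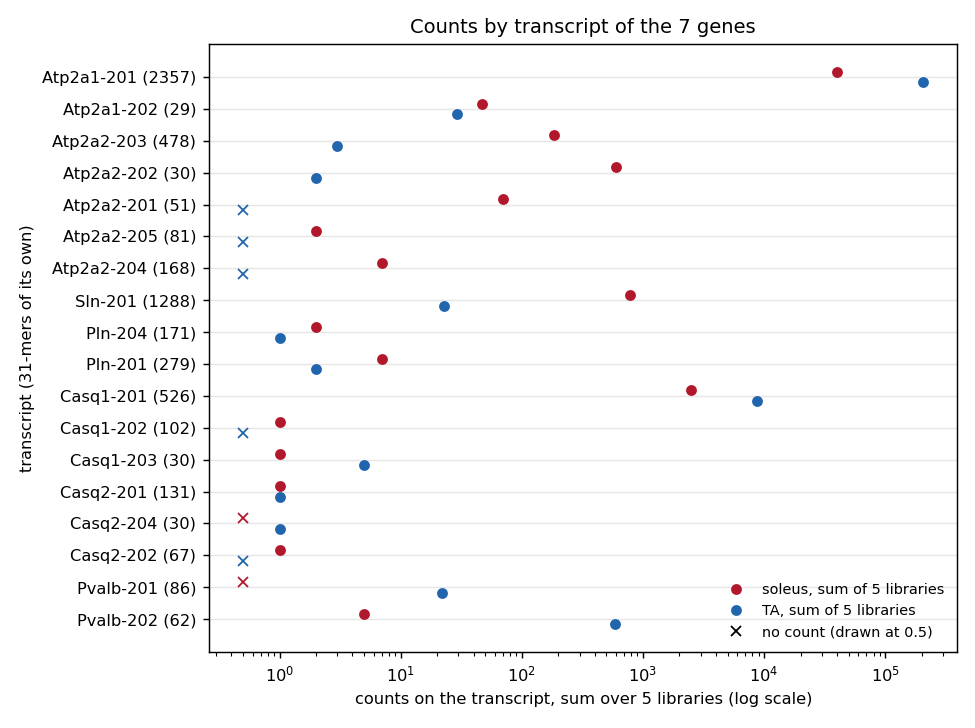
Counts on each transcript of the 7 genes with at least 1 count, summed over 5 libraries per muscle (log scale, crosses at 0.5 for no count), with the number of 31-mers found in no other transcript in brackets. Atp2a1-201 and Casq1-201 hold nearly all counts of their genes, and the Atp2a2 transcripts sit at 604, 185 and 70 counts in soleus against 2, 3 and 0 in TA.

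The share of Atp2a1 in the sum of both pump genes compares the fast and slow pump transcripts within a library, and so without scaling between libraries. With each transcript's counts divided by its length, Atp2a1 made up 97.4% to 98.9% in soleus (mean 98.1% ± 0.561, SD, n = 5) and 99.998% ± 0.00128 in TA. The difference of -1.88 percentage points had p = 0.00794 in an exact 2-sided permutation test of the library labels, the smallest that 5 against 5 libraries can give, and 0.0159 adjusted over both shares tested. With the muscles paired by mouse, sign flips within the 5 mice gave p = 0.0625, the smallest that 5 pairs can give, and 0.125 adjusted over both shares (exact permutation), so the paired test did not pass the threshold. Within males the difference was -2.22 points (3 against 3, exact permutation p = 0.1, the smallest possible). Within females it was -1.38 points (2 against 2, exact permutation p = 0.333, the smallest possible). Per length, every soleus library had less Atp2a1 than any TA library (at most 3511 against at least 10985 CPM per kilobase). Each also had more Atp2a2 (at least 39.0 against at most 0.410). The shares of the muscles thus could not overlap. These p-values follow from that separation and are no further support for it.

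This share turned on the denominator, and the second one rests on the same untested assumption. Where counts were divided by the number of own 31-mers in place of length, Atp2a1 made up 42.9%, 45.5% and 35.3% in the soleus of males 1 to 3 and 56.0% and 49.4% in the females. In TA it remained 99.8% to 100%. The soleus mean was 45.8% ± 7.67 and the difference from TA -54.1 points (exact permutation p = 0.00794). TA transcripts of the pump pair were thus almost purely Atp2a1 under both denominators, while the soleus share was 98.1% under one and 45.8% under the other. The libraries of the 2 muscles did not overlap under either. Per 1000 own 31-mers too, Atp2a1 was lower in every soleus library (at most 5598 against at least 16424 CPM). Atp2a2 was higher in each (at least 4407 against at most 37.6 CPM). The non-overlap of the share and its p-value were thus fixed by these levels.

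**Figure D3:**
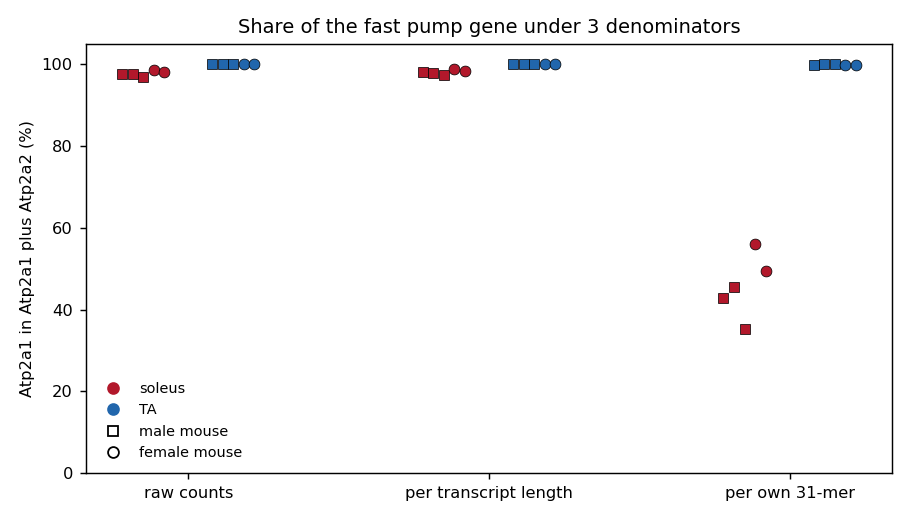
Share of Atp2a1 in Atp2a1 plus Atp2a2 (percent, axis from 0) in each library under 3 denominators, soleus in red and TA in blue, squares for males and circles for females. TA stays near 100% under each, and soleus goes from a mean of 98.1% per transcript length to 45.8% per own 31-mer.

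Sarcolipin, the inhibitor encoded by Sln, was far higher in soleus. The gene lies on chromosome 9 at 53850164 to 53854560 on the plus strand (ENSMUSG00000042045) and encodes a peptide of 31 codons. Soleus had 229, 153 and 214 CPM in males 1 to 3 and 161 and 208 CPM in the females. TA had 2.26, 6.95 and 16.2 CPM in the males and 0 and 1.01 in the females, from 2, 6, 14, 0 and 1 counts. The 2 muscles did not overlap, and the TA libraries differed widely among themselves, with a coefficient of variation of 126% against 17.7% in soleus. With n = 5 per muscle, mean ± SD was 193 ± 34.1 CPM for soleus and 5.28 ± 6.65 for TA, a 37.7-fold difference (log2 fold change 5.24, SE 0.47, adjusted p = 6.78114e-06, edgeR). The summed counts of 788 and 23 correspond to 37.8-fold after scaling (95% counting interval 25 to 60). Without the TA library of male 3, which held 14 of the 23 TA counts, the log2 fold change was 6.17. All 1288 of the 31-mers of its single transcript are its own, so the counts of Sln are not shared out among transcripts.

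Phospholamban, the inhibitor encoded by Pln and best known from the heart, was near the limit of detection. The gene lies on chromosome 10 at 53337667 to 53345987 on the plus strand (ENSMUSG00000038583). Its counts were 3, 1 and 2 in the soleus of males 1 to 3 and 2 and 1 in the females. In TA they were 2, 0 and 0 in the males and 0 and 1 in the females. Each soleus library held at least 1 count and 3 of 5 TA libraries none, but the ranges overlapped. The sums of 9 and 3 correspond to 3.31-fold (counting interval 0.826 to 19.0), so a difference was not detectable from these counts. A fit without the filter gave a log2 fold change of 1.49 (SE 0.99, adjusted p = 0.607, edgeR). Of the 6 annotated transcripts, which all encode the same number of codons, 52, Pln-201 had 7 and 2 counts and Pln-204 had 2 and 1. Pln lies inside Cep85l on the opposite strand, and only 873 of the 2304 31-mers of Pln-201 occur in no other gene. The libraries were of a stranded type, but whether the counting used strand was not stated. The counts of Pln may thus include reads of the opposite strand.

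Casq1, the calsequestrin of skeletal muscle, was higher in TA. It lies on chromosome 1 at 172209894 to 172219868 on the minus strand (ENSMUSG00000007122). Soleus had 664, 756 and 579 CPM in males 1 to 3 and 684 and 418 CPM in the females. TA had 2162, 2743 and 1956 CPM in the males and 1975 and 1061 CPM in the females. The lowest library of each muscle came from female 2, the mouse with the highest Atp2a1 level in each muscle. Soleus averaged 620 ± 130 CPM and TA 1979 ± 604 CPM (± SD, n = 5), a 3.14-fold difference (log2 fold change -1.65, SE 0.21, adjusted p = 0.000112183, edgeR). The fold changes of Atp2a1 and Casq1 were the smallest of the 5 genes tested. Casq1-201 took 2487 of 2489 counts in soleus and 8725 of 8730 in TA. The RefSeq promoter window at chr1:172219846-172220145, on the minus strand, held E-boxes CAGCTG at -195 to -190 and CAGGTG at -67 to -62, and no match to the other motifs.
Casq1 promoter: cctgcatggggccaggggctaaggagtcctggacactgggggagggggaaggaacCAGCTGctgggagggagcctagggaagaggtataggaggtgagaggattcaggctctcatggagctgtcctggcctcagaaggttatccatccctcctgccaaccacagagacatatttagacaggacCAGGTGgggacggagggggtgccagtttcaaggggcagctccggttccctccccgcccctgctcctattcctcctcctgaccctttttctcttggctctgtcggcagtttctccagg

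Casq2, the calsequestrin of the heart and of slow fibers, had 2 counts in soleus and 2 in TA. Males 1 and 3 had 1 soleus count each, male 1 had both TA counts, and the other 7 libraries had none. The gene lies on chromosome 3 at 102086415 to 102146514 on the plus strand (ENSMUSG00000027861). At this depth the upper limit that a count of 0 allows, 3 counts, is 3.12 to 4.13 CPM in soleus and 3.19 to 3.83 in TA by unscaled library totals. A fit without the filter gave a log2 fold change of 0.06 (SE 1.56, adjusted p = 0.996, edgeR). Its 5 annotated transcripts have 30 to 131 own 31-mers each. The share of Casq1 in both calsequestrins per length averaged 99.9% ± 0.223 for soleus and 99.97% ± 0.0627 for TA (± SD, n = 5), a difference of -0.106 points (exact permutation p = 0.444).

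Pvalb, the gene of parvalbumin, had the largest difference toward TA. It lies on chromosome 15 at 78191114 to 78206400 on the minus strand (ENSMUSG00000005716). TA had 136, 126 and 111 CPM in males 1 to 3 and 185 and 125 CPM in the females. Soleus had 0, 0 and 1 counts in the males and 3 and 1 in the females. The lowest TA library was far above every soleus library. Soleus averaged 1.26 ± 1.62 CPM and TA 137 ± 28.5 CPM (± SD, n = 5). The sums of 5 and 609 counts correspond to 110-fold after scaling (95% counting interval 47.0 to 341, log2 fold change -6.64, SE 0.37, adjusted p = 1.2465e-07, edgeR). Soleus female 1 held 3 of the 5 soleus counts, and without it the log2 fold change was -7.50.

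The 2 annotated transcripts of Pvalb start at different sites and encode the same number of codons, 110. Pvalb-202, which starts at 78206400, had 587 counts in TA, 96.4% of the gene's TA counts, and 5 in soleus (log2 fold change -6.57, SE 0.38, adjusted p = 2.24335e-07, edgeR), or -7.41 without soleus female 1. Pvalb-201, which starts at 78204237, was below the filter, with 22 counts in TA and none in soleus, at least 6.65-fold with the soleus sum set to the floor of 3 counts. Every TA library held 3 to 6 counts of Pvalb-201 and 90 to 156 of Pvalb-202, though the transcripts have 86 and 62 own 31-mers. Both RefSeq promoter windows are shown because the counts lay mostly on the transcript of the upstream start. They are at chr15:78206351-78206650 and chr15:78204188-78204487 on the minus strand.
Pvalb promoter at the start of Pvalb-202: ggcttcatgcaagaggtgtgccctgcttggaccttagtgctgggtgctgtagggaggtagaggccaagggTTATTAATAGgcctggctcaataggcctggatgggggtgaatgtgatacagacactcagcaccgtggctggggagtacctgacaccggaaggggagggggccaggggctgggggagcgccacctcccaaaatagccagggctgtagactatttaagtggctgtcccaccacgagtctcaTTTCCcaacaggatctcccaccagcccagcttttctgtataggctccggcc
Pvalb promoter at the start of Pvalb-201: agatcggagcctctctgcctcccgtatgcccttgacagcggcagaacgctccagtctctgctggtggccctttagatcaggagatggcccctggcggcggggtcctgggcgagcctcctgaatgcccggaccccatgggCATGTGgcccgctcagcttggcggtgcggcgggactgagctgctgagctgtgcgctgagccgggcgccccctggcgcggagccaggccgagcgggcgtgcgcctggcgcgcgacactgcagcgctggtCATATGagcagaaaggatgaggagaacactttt

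The window of Pvalb-202 held a MEF2 site, TTATTAATAG, at -180 to -171 and the reverse complement of the NFAT core at -1 to 3, and no E-box. The window of Pvalb-201 held E-boxes CATGTG at -111 to -106 and CATATG at 17 to 22 and no match to the other motifs. The bases G and C made up 58.3% of the first window and 67.7% of the second. They made up 62.3% of the Atp2a1 window and 60.3% of the Casq1 window.

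**Figure D4:**
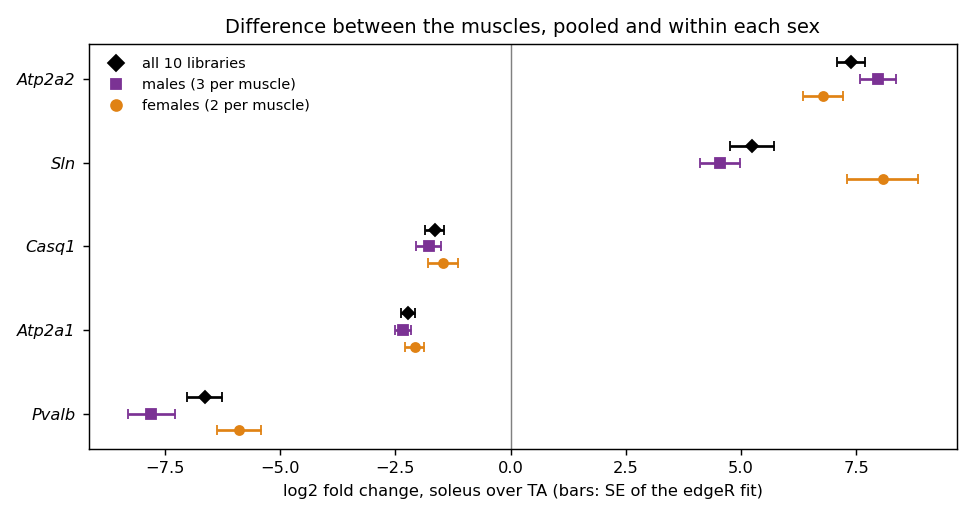
Log2 fold change of soleus over TA for the 5 tested genes, with the SE of the edgeR fit, over all 10 libraries (diamonds) and within males (squares) and females (circles). All 3 estimates of each gene lie on the same side of 0, and Sln spans the widest range, from 4.54 in males to 8.07 in females.

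Levels per transcript length placed the genes in a different order in each muscle. In soleus Atp2a1 led with 2851 ± 612 CPM per kilobase, rank 15 to 29 of 20009 genes over the libraries. Casq1 followed with 336 ± 70.2, Sln with 146 ± 25.8 and Atp2a2 with 52.4 ± 9.28 CPM per kilobase (SD, n = 5 each). These 4 did not overlap with their neighbours in the order. Pln, with 1.36 ± 0.567, Pvalb, with 1.33 ± 1.70, and Casq2, with 0.469 ± 0.806 CPM per kilobase, overlapped with each other. In TA Atp2a1 stood at 13185 ± 2585 CPM per kilobase, rank 4 to 13, followed by Casq1 with 1073 ± 327 and Pvalb with 143 ± 29.9. Sln, with 4.01 ± 5.05, Pln, with 0.475 ± 0.843, Casq2, with 0.329 ± 0.736, and Atp2a2, with 0.230 ± 0.149 CPM per kilobase, overlapped. Per 1000 own 31-mers the soleus order changed, with Atp2a2 at 5410 ± 800 CPM and Atp2a1 at 4589 ± 902 CPM overlapping (4407 to 6608 and 3603 to 5598). On that scale Casq1 stood at 1189 ± 248 CPM and Sln at 150 ± 26.4. The order of both pumps in soleus therefore differed between the scales. The TA order was also less firm per own 31-mer. Atp2a1 still led there without overlap, and Casq1 kept a higher mean than Pvalb. The TA libraries of Casq1 and Pvalb overlapped on that scale, which they did not per kilobase. Among the low genes in TA, Atp2a2 and Casq2 then had higher means than Sln, and these genes and Pln again overlapped.

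The tissue difference held its sign within each sex in a fit of the 4 group means. Log2 fold changes in males and females were -2.33 and -2.08 for Atp2a1, 7.97 and 6.77 for Atp2a2, 4.54 and 8.07 for Sln, -1.78 and -1.46 for Casq1, and -7.80 and -5.89 for Pvalb. The highest adjusted p among these was 0.0204, for Casq1 in females (edgeR). That fit shares its estimate of the spread between the sexes. Fitted on the females alone, Casq1 (-1.43, adjusted p = 0.253) and Atp2a1 (-2.05, adjusted p = 0.0808, edgeR) did not pass. For sex itself, 0.547% of genes were called in soleus, 0.645% in TA and 0.00% for the interaction with tissue, and none of the 5 genes was among them. At an unadjusted p under 0.05, the sex difference had 845 of 5115 genes in soleus and 596 in TA, and the interaction had 351.

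In soleus, Atp2a1 had 7900 to 8947 CPM in males and 12137 to 12181 in females. These ranges did not overlap, but the male minus female difference of -0.55 in log2 (SE 0.18) had an adjusted p of 0.165 (edgeR, unadjusted p = 0.0120). In TA the same difference was -0.29 (SE 0.18, adjusted p = 0.593, edgeR). Sln in TA had 22 counts in the 3 males and 1 in the 2 females, 15.6-fold after scaling (counting interval 2.52 to 644). That difference was 3.65 in log2 (SE 1.06, adjusted p = 0.183, edgeR), and the interaction of sex and tissue for Sln was -3.54 (SE 1.14, adjusted p = 0.654, edgeR). Without the filter on low counts the Sln difference in TA was 3.68 (adjusted p = 0.00383) and its interaction -3.47 (adjusted p = 0.0421, edgeR). The sex difference of Sln in TA was thus past the threshold only without the filter, and 14 of its 22 male counts came from male 3.

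Genes with the most similar pattern over the 10 libraries were found by the root mean square difference of log2 CPM after each gene's mean was subtracted, among 4220 other genes averaging 10 CPM or more. The libraries share depth and scaling, and the measure is a description. Atp2a1 was most like Mylk2, the skeletal muscle myosin light chain kinase (0.133), and Eno3, the muscle enolase (0.22). Casq1 was most like Ube2c, a ubiquitin-conjugating enzyme (0.214), and Pkm, pyruvate kinase (0.234). Pvalb was most like Tmem233 (0.589) and Mylk4 (0.600). Atp2a2 was most like the slow fiber genes Myl2 (0.356) and Tnni1 (0.470), both with no count in TA. Sln was most like slow troponin Tnnt1 (0.772) and Xpo4, a nuclear exportin (0.877). The nearest genes of Sln were thus farther away than those of the other 4 genes.

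Other genes of calcium handling were taken from 5 lists with 68 names, of which 37 passed the filter. Of these, 6 were higher in soleus, 11 were higher in TA and 20 did not pass the threshold. Thus 45.9% were called, against 22.0% of all genes tested. The lists were chosen with earlier results of these data known, so this share is a description and not a test. The median log2 fold change of the 37 genes was 0.02 beside 0.01 for all genes. Apart from Strit1, the called differences were smaller in size than those of Pvalb, Atp2a2 and Sln. Slc8a3 (-2.56) and Slc8a1 (-2.27) exceeded Atp2a1 (-2.23) in size. Camk2a (-2.12), Micu3 (-2.12) and Ppp1r3a (-1.76) also exceeded Casq1 (-1.65). Leaving out 1 library at a time gave 14 to 16 calls in place of 17.

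Among other pumps and exchangers, 3 of 11 genes were tested and 2 were higher in TA, with a median log2 fold change of -2.27. The sodium-calcium exchanger Slc8a1 averaged 6.99 ± 2.23 CPM for soleus and 34.2 ± 17.8 for TA (± SD, n = 5, log2 fold change -2.27, SE 0.39, adjusted p = 0.00134, edgeR). Slc8a3, another exchanger of the family, differed by -2.56 (SE 0.63, adjusted p = 0.0113, edgeR), and by -3.41 without soleus male 2. The plasma membrane pump Atp2b1 had a log2 fold change of 0.21 (SE 0.16, adjusted p = 0.381, edgeR). The third SERCA gene, Atp2a3, had 2 counts in soleus and 1 in TA.

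Among regulators of the pumps, 9 of 15 genes were tested, 3 were higher in soleus and 3 in TA, with a median of -0.25. Strit1, which encodes the SERCA-activating peptide DWORF, had 183 counts in soleus and none in TA. Its soleus libraries held 23.7 to 67.4 CPM, at least 67.3-fold above TA with the TA sum set to the floor of 3 counts (adjusted p = 9.60377e-05, edgeR). It is annotated as Gm34302 in the gene models used. Mrln, which encodes the inhibitory peptide myoregulin, had 5.0 ± 2.32 CPM for soleus and 14.8 ± 8.05 for TA (± SD, n = 5, log2 fold change -1.54, SE 0.51, adjusted p = 0.0487, edgeR). Its call was lost in 9 of the 10 fits that each left out 1 library, up to an adjusted p of 0.153, and passed only without TA male 1. Ppp1r3a, the glycogen-targeting subunit of protein phosphatase 1, had 584 ± 51.6 CPM in soleus and 1989 ± 244 in TA (log2 fold change -1.76, SE 0.13, adjusted p = 2.57577e-06, edgeR). The calcium-calmodulin kinase gene Camk2a differed by -2.12 (SE 0.16, adjusted p = 2.6356e-06, edgeR). Ppp1r1a, a phosphatase inhibitor, was higher in soleus by 1.44 (SE 0.30, adjusted p = 0.00409, edgeR).

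Among other buffers and proteins of the reticulum lumen, 8 of 16 genes were tested, 1 was higher in soleus and 1 in TA, with a median of 0.29. The calmodulin gene Calm3 differed by -1.20 (SE 0.16, adjusted p = 0.000223, edgeR) and S100a1, a calcium-binding protein of striated muscle, by 0.67 (SE 0.18, adjusted p = 0.0199, edgeR). S100a1 did not pass without soleus male 1, TA male 2, soleus female 1 or TA female 2, with a highest adjusted p of 0.0750. Calm2 had a log2 fold change of -0.90 (adjusted p = 0.0501, edgeR) and the lumenal chaperone Calr of 0.51 (adjusted p = 0.138, edgeR).

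Among genes of calcium release and the triad, the junction of the reticulum with the surface tubules, 12 of 16 were tested and 4 were higher in TA, with a median of -0.17. Jph1, which holds the triad membranes together, differed by -1.29 (SE 0.15, adjusted p = 4.21449e-05, edgeR). Cacng1, a subunit of the muscle calcium channel, differed by -1.52 (SE 0.25, adjusted p = 0.000843, edgeR). Sypl2, the triad protein mitsugumin 29, differed by -0.79 (adjusted p = 0.00682) and the channel subunit Cacna2d1 by -0.68 (adjusted p = 0.0259, edgeR). Cacna2d1 passed without TA male 1, TA male 3, soleus male 2 or soleus female 1, but not without any of the other 6 libraries, with a highest adjusted p of 0.0724.

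Among genes of mitochondrial uptake and store-operated entry, 5 of 10 were tested, 2 were higher in soleus and 1 in TA, with a median of 0.50. The mitochondrial uniporter Mcu was higher in soleus by 0.75 (SE 0.15, adjusted p = 0.00355, edgeR) and its regulator Micu2 by 1.04 (SE 0.31, adjusted p = 0.0322, edgeR). A further regulator, Micu3, was lower in soleus, with a log2 fold change of -2.12 (SE 0.28, adjusted p = 0.00015, edgeR). Stim1, the sensor of store depletion, had a log2 fold change of 0.50 (adjusted p = 0.252, edgeR). The call of Micu2 held without soleus male 1, TA male 3, TA female 1 or soleus female 2, but not without any of the other 6 libraries, with a highest adjusted p of 0.0906.

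**Figure D5:**
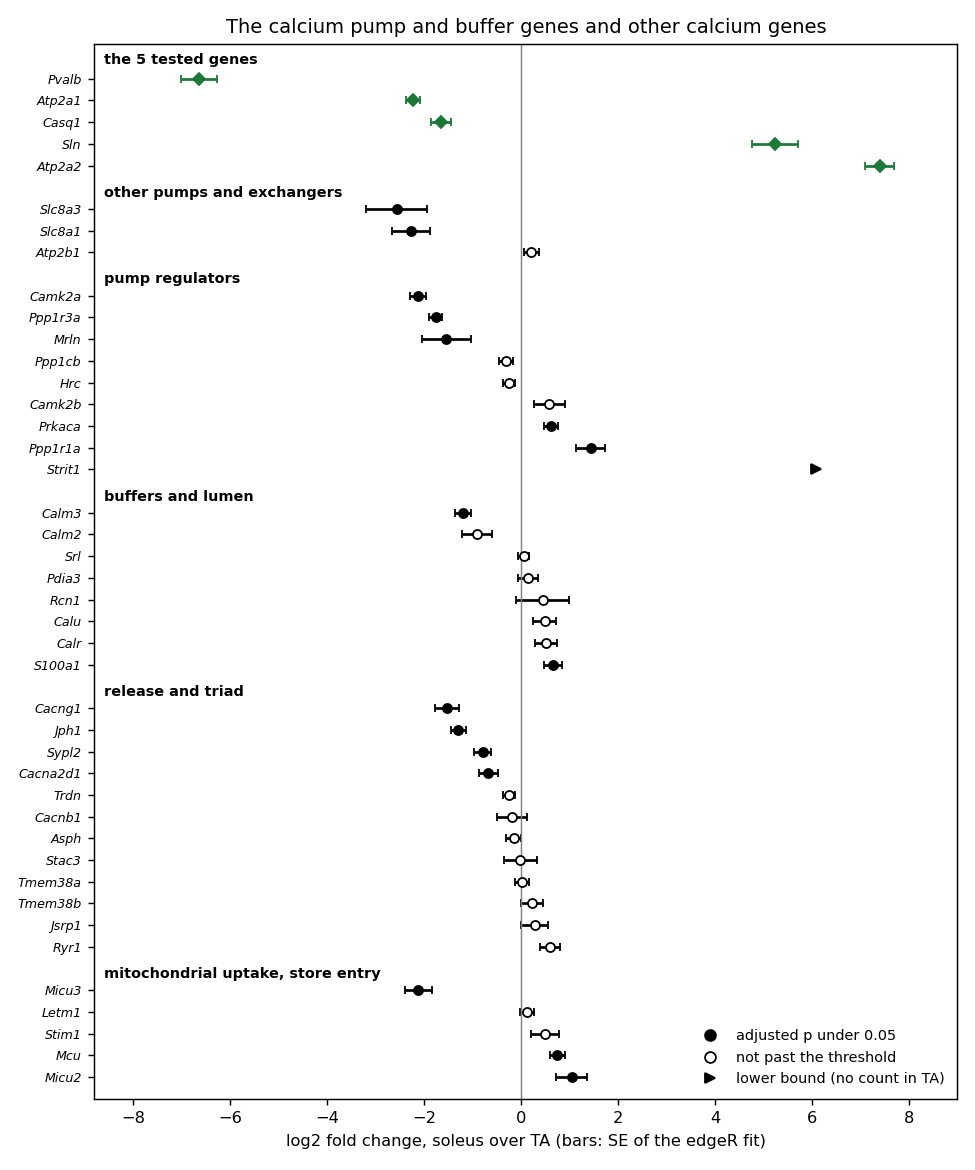
Log2 fold change of soleus over TA with the SE of the edgeR fit for the 5 tested pump, inhibitor and buffer genes (green) and 37 other calcium genes in 5 lists, filled where the adjusted p is under 0.05. Strit1 is drawn at its lower bound of 67.3-fold, and the other 16 called genes of the lists lie between -2.56 and 1.44.

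Markers of other cells in whole muscle moved with the muscles in part. Smooth muscle and pericyte genes summed to 416 to 662 CPM in soleus and 604 to 1186 in TA, with 2 of 4 tested higher in TA. Endothelial genes summed to 179 to 261 CPM in soleus and 239 to 802 in TA, with 2 of 2 tested higher in TA. Adipocyte genes had 2 of 3 tested higher in soleus, at 156 to 233 CPM against 91.5 to 218. Tenocyte genes summed to 278 to 1021 CPM against 154 to 685 with 1 of 5 higher in soleus, and satellite cell genes to 85.4 to 259 against 66.5 to 133 with 1 of 3 higher in soleus. Fibro-adipogenic cell genes, at 126 to 189 and 93.6 to 185 CPM, had 1 of 4 higher in each muscle. Macrophage genes (180 to 782 and 422 to 537 CPM), Schwann cell genes (10.5 to 38.8 and 10.1 to 25.1 CPM, with Sox10 at no count) and erythroid genes (260 to 36755 and 1562 to 21705 CPM) had none called among 2, 1 and 5 tested by edgeR. Their part in the differences of the pump and buffer genes was not tested.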

How the data were processed

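The authors deposited raw read counts per Ensembl transcript, whole numbers in 1 file per library, with transcripts of no read not listed. Per the submitters' processing notes, bcl2fastq, Trimmomatic 0.32, FastQC and the build GRCm38.p4 were used. The aligner and counting tool are not given in the sources used here. Per the labels' protocols, 10 ng of total RNA per sample went into cDNA libraries of the Takara SMART-Seq Stranded type.

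Transcripts were matched to GENCODE M21 (40359 of 40414, the other 55 left out) and summed to genes. Tests across genes used edgeR 4.0.16 in R 4.3.3 (TMM, filterByExpr by the 4 groups of muscle and sex, quasi-likelihood F test), with DESeq2 1.42.0 as an alternative. Shares were tested by exact permutation over libraries in Python 3.11.15 with scipy 1.17.1. CPM are counts over the TMM-scaled library size. Intervals and floors cover the counting error of pooled reads only, at the 95% level, and not the spread between mice. Reads carry no molecular identifiers, so copies of 1 molecule could not be told apart and the intervals may be too narrow. Own 31-mers of each transcript were counted over all GENCODE M21 transcripts. The fits were tested on simulated data with known changes.

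The members, the other calcium genes and the marker lists were chosen with earlier results of these data known. Genes named were all 7 members, up to 4 genes per list by p, and the 2 nearest genes by likeness. Atp2a3, Mrln and the genes that lost calls were named after their values were seen. Strit1 was matched through RefSeq synonyms. Replicate numbers pair the muscles: deviations of same-numbered libraries from their group means correlated at r = 0.184 to 0.239 over genes in males and 0.279 in females, the latter equal in both pairs by construction. The alternatives tried were other scalings, no filter, DESeq2, protein-coding transcripts only, library sizes without Gm20594 and Cep295, a replicate block, each sex alone and leaving out each library. The counts of other calcium genes called under these alternatives were added after seeing the data.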

Additional observations from a re-analysis of the deposited data

How the results depend on the processing

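Atp2a1, Atp2a2, Sln, Casq1 and Pvalb kept their direction under all 19 alternatives and their calls under 18. With females only, 19 genes were called, 3 of the 5 genes and 3 of their transcripts passed, and Atp2a1 (-2.05, adjusted p = 0.0808) and Casq1 (-1.43, adjusted p = 0.253, edgeR) did not. That fit has 2 libraries per muscle, and called none of the other calcium genes. Leaving out 1 library gave 892 to 1353 genes called, all 5 genes and 7 of their transcripts called, and log2 fold changes of -2.36 to -2.17 for Atp2a1, 7.10 to 7.77 for Atp2a2, 4.92 to 6.17 for Sln, -1.84 to -1.55 for Casq1 and -7.50 to -6.37 for Pvalb. The difference in the Atp2a1 share was then -2.08 to -1.70 points. With the replicate block, 1207 genes were called, 1069 of them shared with the 1126, and no call of the 5 genes changed. For the Atp2a1 share, the block of sign flips within mice gave -1.88 points with p = 0.0625, the smallest 5 pairs allow, and 0.125 adjusted (exact permutation). Males only gave -2.22 points and females only -1.38, each at the smallest p its size allows. The count of sex calls among the 5 genes was 0 in the reported fit and 2 without the filter, both for Sln (3.68 in TA and -3.47 for the interaction). The unfiltered fit gave far smaller p-values at a similar SE, so its calls cannot be set beside those of the reported fit. Pln and Casq2 had 12 and 4 counts in all, too few for the test. What keeps their counts low was not tested.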
